A study of Mus musculus with 6 samples.

Results

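Zfp genes encode zinc finger proteins, and 166 of the 365 protein-coding genes whose name is Zfp followed by digits alone reached a mean of at least 2 FPKM in sorted LSK cells. FPKM is the number of fragments per kilobase of gene length, scaled to the size of the library. The genes were chosen by their mean FPKM over all 6 libraries of both groups, out of a table of 54532 genes, so their level is a description. The limit of 2 FPKM did not use the difference between the groups, but the Zfp genes were picked as a set with earlier results of these data known. Of the other Zfp genes, 81 had a mean of 1 to 2 FPKM and 118 were under 1 FPKM. Around the limit, Zfp292, Zfp606 and Zfp652 lay just inside at 2.01, 2.02 and 2.04 FPKM, and Zfp113, Zfp27 and Zfp81 just outside at 1.92, 1.93 and 1.99 FPKM. In both groups 156 of the 166 genes were at 2 FPKM or more. The group mean was under 2 FPKM in 9 genes of the Myh9-deficient group, 2 of them called different, and in 1 gene of the control group.

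LSK cells are lineage-negative bone marrow cells that carry Sca1 and c-Kit and hold the hematopoietic stem cells and early progenitors. They were sorted from 3 Myh9fl/fl;Mx1-cre samples (cKO, called Myh9-deficient LSKs after the study) and 3 Myh9fl/fl;no cre littermate samples (CTRL, control), all C57BL/6, with 100000 cells in each. Both groups carried floxed Myh9 alleles and both received poly I:C at 5 mg/kg, given 2 times according to the labels although the study's methods give another number, and cells were taken 4 days after the first injection. The mice had been genotyped at 4 to 5 weeks of age. Mx1-cre is switched on by interferon and is active outside blood cells as well. How many mice went into each sample was not given in the sources used here, so p-values measure the spread between these samples.

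Zinc fingers of the C2H2 type are short folds held by a zinc ion between paired cysteines and histidines, and tandem arrays of them read DNA. A large part of the family carries a KRAB domain, which recruits Trim28 (KAP1) and through it histone methylation and HP1 proteins that silence retroelements and other targets. Others act without KRAB as activators, repressors or parts of chromatin complexes, and some gene names of this series stand for proteins that bind RNA or ubiquitinate proteins rather than regulate transcription. Several are known in hematopoietic cells for controlling cytokine mRNA decay, lineage genes or chromatin complexes.

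The libraries held 17571544 to 19894562 reads on genes, recovered from the FPKM values and the gene lengths, and no Zfp gene of the 166 had fewer than 45 reads in a library. Log values correlated at 0.991 to 0.993 within a group and 0.974 to 0.977 between groups. Myh9 itself had 23.0, 22.6 and 22.0 FPKM in control and 18.4, 19.96 and 17.7 FPKM in cKO, with an adjusted p of 0.0064 by limma with Benjamini-Hochberg adjustment. Its mean was 22.5 FPKM in control and 18.7 FPKM in cKO (log2 fold change -0.26), so most of its RNA remained by this measure. The name Myh9-deficient thus follows the genotype. FPKM are totals per gene, so the deleted part of Myh9 was not measured apart. The LSK markers Ly6a, Kit and Cd34 were present in all libraries, while the lineage markers Cd3e and Cd8a were at 0.282 FPKM or less. Marker sums moved with the groups. The 6 neutrophil and monocyte genes summed to 6967 to 7013 FPKM in control and 3584 to 3639 FPKM in cKO, the 8 erythroid genes to 448 to 452 and 798 to 821 FPKM, and the 5 megakaryocyte genes to 56.7 to 60.03 and 123 to 129 FPKM, with Gp1bb listed at 0 throughout. The 5 mast cell and basophil genes summed to 89.8 to 102 FPKM in control and 147 to 157 FPKM in cKO (4 higher), the 5 B and plasma cell genes to 38.9 to 39.5 and 73.7 to 79.9 FPKM, and the 4 T and NK genes to 364 to 376 and 329 to 333 FPKM. The T and NK sum was mostly Nkg7, which was lower (log2 fold change -0.34), while Ccl5 (1.73) and Gzmb (1.49) were higher. The 10 immediate early genes, which respond within minutes to stimuli and to cell handling, all fell, from sums of 790 to 807 FPKM to 381 to 403 FPKM. The part of these shifts in the Zfp results was not tested, and in bulk RNA fewer cells of a kind and less RNA per cell cannot be told apart.

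More Zfp genes were lower than higher in Myh9-deficient LSKs, and most did not pass the test. By limma on log2(FPKM + 1), with Benjamini-Hochberg adjustment over the 11552 genes that averaged 1 FPKM or more, 44 of the 166 were lower (26.5%) and 10 were higher (6.02%) at an adjusted p under 0.05. Over all genes tested, 20.6% were lower and 19.9% were higher. The log2 fold change, cKO minus control, was negative in 123 of the 166 (74.1%) and in 51.7% of all genes tested, and its median was -0.10 over the Zfp genes and -0.0096 over all genes. Other protein-coding genes at 2 FPKM or more stood at a median of -0.016, with 24.1% lower and 21.5% higher. The lower share of Zfp genes thus lay close to that of other protein-coding genes of this level, and the higher share lay below it. The 2 groups of libraries did not overlap in 66 Zfp genes in the lower direction and 19 in the higher direction, where 28.5% and 25.5% of all genes tested did not overlap. Without control replicate 2, 27 of the Zfp genes were called lower and 7 higher, and after removing each library's trend with gene length 32 were lower and 13 higher, which raises the higher share of the calls from 18.5% to 28.9%.

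The changes were small apart from a handful of genes. Of the 54 called genes, 51 changed by less than 0.5 on the log2 scale, the exceptions being Zfp36, Zfp516 and Zfp580, and 1 changed by more than 2-fold, as did 241 of the 11552 genes tested and 100 of the 8599 other protein-coding genes at 2 FPKM or more. In either direction 40.5% of all genes tested were called. The call held in each of 19 alternative fits for 26 of the Zfp genes, 19 lower and 7 higher, and for 22.5% of all genes tested. Within a group the coefficient of variation of a Zfp gene's FPKM had a median of 5.31%, and the standard error of its log2 fold change had a median of 0.062. Together the 166 genes took 0.541% to 0.553% of the reads on genes in control and 0.500% to 0.510% in cKO. Summed FPKM ran from 1224 to 1232 in control and from 1113 to 1141 in cKO, and without Zfp36 from 1160 to 1169 and from 1085 to 1115.

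**Figure D1:**
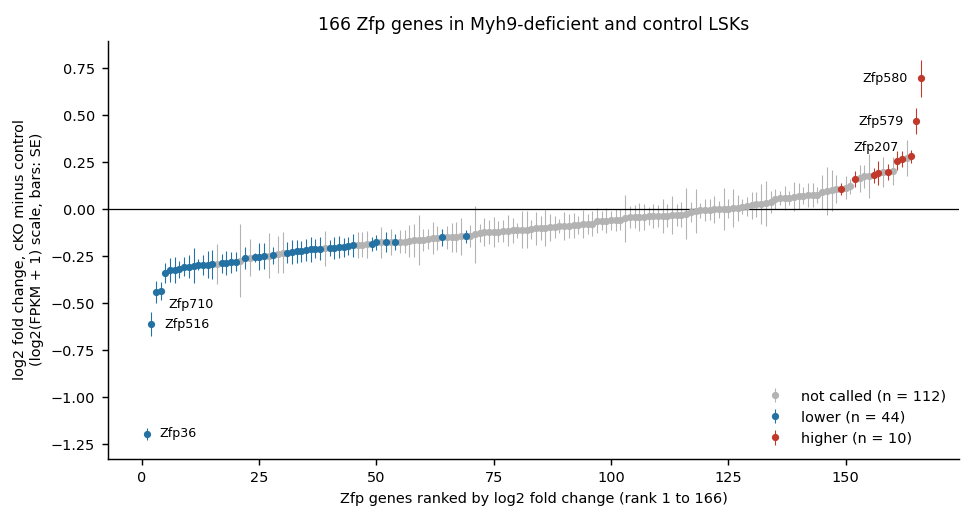
Log2 fold change (cKO minus control, on the log2(FPKM + 1) scale) of the 166 Zfp genes in rank order, with bars for the standard error and colour for the call at an adjusted p under 0.05. The left tail ends at Zfp36 (-1.19) and the right tail at Zfp580 (0.70), and 123 of the 166 points lie below 0.

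Zfp36 showed the largest change and was the second most abundant Zfp gene. It encodes tristetraprolin, a CCCH protein that binds AU-rich elements and speeds the decay of cytokine and early response mRNAs, and its own transcript is an immediate early one. Its level was 63.9, 62.7 and 62.9 FPKM in control and 27.0, 28.0 and 26.2 FPKM in cKO, far outside the spread within each group, with a log2 fold change of -1.19 ± 0.032 (SE, n = 3 per group) and an adjusted p of 3.5e-06. The median of 563 protein-coding genes of similar length and level was 0.030. The 10 immediate early genes listed above, which do not include Zfp36, had a median of -1.10. Zfp36l2, a paralog outside the 166 because of the letter in its name, rose from a mean of 201 to 224 FPKM (log2 fold change 0.16, adjusted p = 0.0071, up to 0.21 in the alternatives). The 250 bases before the RefSeq start of Zfp36 (GRCm38.p6, chr7:28379229-28379478, minus strand) are shown because this gene carries the largest change. The start lies 1025 bases inside the deposited 5′ end of the gene. Capitals mark a GC box (GGGCGG), an ETS core (CCGGAA) and a CArG box, the site of serum response factor, searched on both strands, of which the GC box and the CArG box share a base.
Zfp36: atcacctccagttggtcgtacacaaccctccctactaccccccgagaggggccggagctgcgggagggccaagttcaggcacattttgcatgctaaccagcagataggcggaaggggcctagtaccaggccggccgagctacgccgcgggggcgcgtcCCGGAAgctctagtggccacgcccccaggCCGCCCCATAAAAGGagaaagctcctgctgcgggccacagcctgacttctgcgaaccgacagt
Among the 140 Zfp genes with a RefSeq window, Zfp36 alone held a CArG box in it (0.714%, against 1.47% of all 32851 windows of that length). A cyclic AMP response element (TGACGTCA) was found in 4 windows of Zfp genes, not in that of Zfp36.

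The next largest falls were spread over genes of several kinds. Zfp516, a partner of PRDM16 in the thermogenic programme of brown fat, had 3.31, 3.48 and 3.13 FPKM in control and 1.93, 1.82 and 1.70 FPKM in cKO, which gave a log2 fold change of -0.61 ± 0.064 (SE, n = 3 per group; adjusted p = 0.00058). Zfp217, a component of CoREST and LSD1 complexes with oncogene activity in epithelial tumours, had 10.8, 10.2 and 10.7 FPKM in control and 7.87, 7.12 and 7.69 FPKM in cKO (log2 fold change -0.44 ± 0.049, adjusted p = 0.0008). Zfp516 averaged 1.82 FPKM in cKO and so reached the limit of 2 FPKM through its control level. In both genes the lowest control library stood above the highest cKO library. Zfp710 was at 7.89, 8.20 and 8.55 FPKM against 5.68, 5.43 and 6.28 FPKM (-0.44 ± 0.059, adjusted p = 0.0017). Zfp367, also known as ZFF29 and described in erythroid cells, was at 6.65, 7.16 and 7.02 FPKM against 5.42, 5.19 and 5.49 FPKM (-0.32 ± 0.046, adjusted p = 0.0022). Zfp646, Zfp526, Zfp3, Zfp46 and Zfp629 completed the 10 largest falls, with log2 fold changes from -0.34 to -0.31 and adjusted p between 0.0036 and 0.010. All 10 stayed called in each of the 19 alternatives.

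Falls also reached the most abundant Zfp genes. Zfp706, which encodes a very small single-finger protein known to limit self-renewal of embryonic stem cells, was the most abundant of all. It had 70.7, 70.0 and 68.8 FPKM in control and 58.6, 58.4 and 58.0 FPKM in cKO, a log2 fold change of -0.26 ± 0.024 (SE, n = 3 per group; adjusted p = 0.00039). Zfp146, a protein made almost entirely of zinc fingers, fell from 26.5, 26.6 and 27.3 FPKM to 21.6, 21.3 and 22.0 FPKM (-0.30 ± 0.029, adjusted p = 0.00047). Zfp422 fell from a mean of 41.7 ± 0.954 (SD) to 36.5 ± 1.42 FPKM (-0.19, adjusted p = 0.0084). The remaining genes of the 10 most abundant were Zfp207, Zfp771, Zfp598 and Zfp692, which rose, and Zfp35 (22.4 and 22.7 FPKM, adjusted p = 0.82) and Zfp414 (18.1 and 19.9 FPKM, adjusted p = 0.051), which did not pass the test. Zfp414 shares 44.6% of its 31-mers with transcripts of other genes. Zfp251, which the study names among genes of stem and progenitor cell self-renewal, lay 0.15 below the median of genes of its length and level on the log2 scale. It had 5.82, 5.77 and 5.45 FPKM in control and 4.76, 5.03 and 4.72 FPKM in cKO, and its call (adjusted p = 0.017) was lost without control replicate 1 or 2 or cKO replicate 1 or 3, at up to 0.061.

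**Figure D2:**
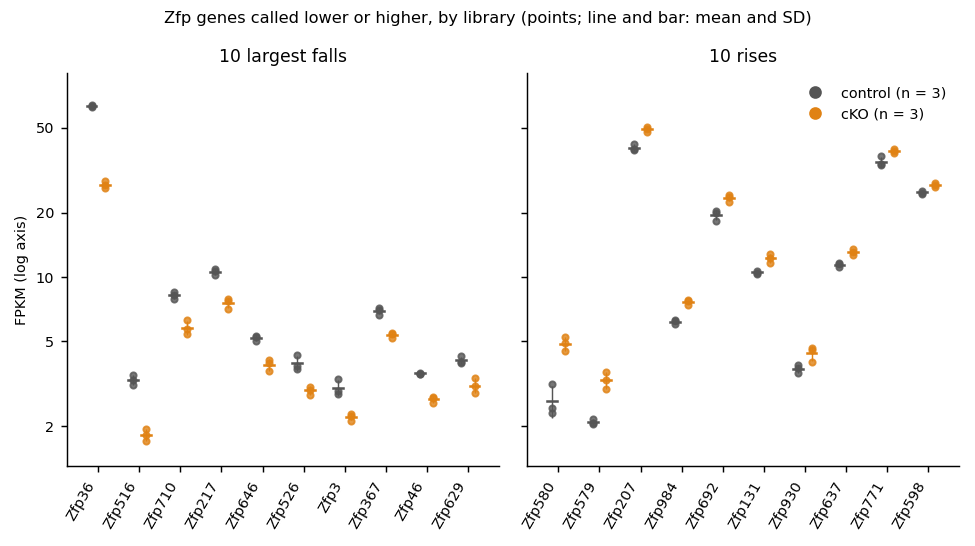
FPKM (log axis) of the 10 largest falls and of the 10 rises in each library, grey for control and orange for cKO (3 libraries each), with lines at the mean and bars for the SD. The groups are separate in all 20 genes, with the widest gap in Zfp36.

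The 10 rises were led by a pair of genes at a low level from the same run of Zfp genes. Zfp580 had 2.44, 3.16 and 2.32 FPKM in control and 4.92, 4.49 and 5.21 FPKM in cKO, a log2 fold change of 0.70 ± 0.098 (SE, n = 3 per group; adjusted p = 0.002), on 56 reads or more per library. Zfp579 had 2.07, 2.17 and 2.05 FPKM against 2.98, 3.60 and 3.29 FPKM (0.47 ± 0.070, adjusted p = 0.0026). Zfp580 lay 0.57 and Zfp579 0.51 above the median log2 fold change of genes of their length and level. They lie on chromosome 7 in a run of 5 Zfp genes within 138507 bases that also holds Zfp628, Zfp524 and Zfp865. Zfp628 was lower, at 4.91, 5.30 and 5.47 FPKM in control and 4.64, 3.88 and 4.24 FPKM in cKO (-0.25, adjusted p = 0.028), and Zfp865 was lower at 3.53, 3.53 and 3.69 against 2.92, 3.29 and 2.68 FPKM (-0.21, adjusted p = 0.046). Neither call was stable. Zfp628 was lost without control replicate 2 or 3 and without cKO replicate 2 or 3 (adjusted p 0.068 to 0.086), and Zfp865 was lost in 5 of 6 fits that leave out a library (up to 0.12 without control replicate 3), the exception being without cKO replicate 2. With the length trend removed Zfp865 was at -0.12 (adjusted p = 0.20), and with GC and length trends removed at -0.091 (adjusted p = 0.31). Zfp628 was called in 11 and Zfp865 in 7 of the 19 alternatives. Zfp865 also shares 20.7% of its exonic bases with a gene on the other strand, which an unstranded library cannot separate. Zfp524 did not pass the test (adjusted p = 0.52).

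The windows before the RefSeq starts of this run are shown for the genes that have one, since neighbours here moved in opposite directions. They are GRCm38.p6 chr7:4914967-4915216 (plus strand) for Zfp628, chr7:4996102-4996351 (minus strand) for Zfp579 and chr7:5051282-5051531 (plus strand) for Zfp580, read in the direction of each gene, with the same 4 motifs in capitals.
Zfp628: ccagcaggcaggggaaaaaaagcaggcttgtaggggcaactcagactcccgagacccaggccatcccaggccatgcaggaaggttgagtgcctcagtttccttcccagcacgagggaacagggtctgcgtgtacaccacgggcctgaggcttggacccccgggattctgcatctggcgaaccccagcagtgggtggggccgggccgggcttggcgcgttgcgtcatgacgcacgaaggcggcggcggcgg
Zfp579: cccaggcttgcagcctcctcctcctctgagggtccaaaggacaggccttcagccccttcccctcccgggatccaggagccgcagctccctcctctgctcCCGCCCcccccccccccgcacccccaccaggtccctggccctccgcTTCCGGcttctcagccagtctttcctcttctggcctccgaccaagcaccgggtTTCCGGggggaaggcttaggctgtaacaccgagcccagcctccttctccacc
Zfp580: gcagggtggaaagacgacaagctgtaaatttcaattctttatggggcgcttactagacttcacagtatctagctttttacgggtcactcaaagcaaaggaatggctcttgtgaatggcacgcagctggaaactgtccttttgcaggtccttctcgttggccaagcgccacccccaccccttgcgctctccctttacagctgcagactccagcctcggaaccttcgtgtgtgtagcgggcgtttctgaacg
Zfp579 held 1 GC box and 2 ETS cores, and the windows of Zfp628 and Zfp580 held none of the 4 motifs. Over all Zfp genes with a window, 71 of 140 held a GC box (50.7%, against 32.7% of all windows) and 46 held an ETS core (32.9%, against 12.03%). The GC box was present in 22 of the 36 lower genes with a window and in 5 of the 9 higher ones. The ETS core was present in 7 of the 36 lower genes, in 2 of the 9 higher ones and in 37 of the 95 genes that were not called. In 115 of the 140 genes the RefSeq start lay within 100 bases of the deposited 5′ end, and the comparison windows were not limited to expressed genes. These are counts of letters in a window and do not show that a factor binds there.

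The other rises were of 0.28 or less on the log2 scale. Zfp207 (BuGZ), a spindle protein that binds microtubules and the checkpoint protein Bub3, rose from 39.95, 41.9 and 39.2 FPKM to 50.4, 48.0 and 49.5 FPKM (0.28 ± 0.036, adjusted p = 0.0013). Zfp692, known as AREBP from its binding to an AICAR response element, rose from 18.3, 19.9 and 20.3 FPKM to 24.3, 23.6 and 22.5 FPKM (0.26 ± 0.050, adjusted p = 0.0072). Zfp131, a BTB domain transcription factor, rose from 10.4, 10.7 and 10.5 FPKM to 12.2, 11.6 and 12.8 FPKM (0.20 ± 0.043, adjusted p = 0.010). In each of the 3 genes every cKO library exceeded every control library. Zfp637 rose from a mean of 11.4 to 13.1 FPKM (adjusted p = 0.011). Zfp984 (0.27, adjusted p = 0.003) shares 69.6% of its 31-mers with other genes, so its value is uncertain. Zfp771 (0.16), Zfp930 (0.19) and Zfp598 (0.11) had adjusted p of 0.021, 0.049 and 0.034. Zfp771 was called in 11 of the 19 alternatives. It lost its call without control replicate 1 or 2 or cKO replicate 1 or 2 (adjusted p up to 0.070), and its log2 fold change was 0.094 (adjusted p = 0.093) with the length trend removed and 0.051 (adjusted p = 0.42) with GC and length trends removed. Zfp930 and Zfp598 lost theirs when any library other than cKO replicate 1 was left out, at up to 0.13 and 0.095, and were called in 10 and 9 of the 19 alternatives.

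How often genes were called in each direction went with gene length, so the Zfp genes were placed beside other protein-coding genes of their length. The lower calls of the Zfp genes stayed near those of other genes in every length class, while their higher calls were fewer in all 3. Under 3000 bases, 6 of 45 Zfp genes were lower (13.3%) and 5 were higher (11.1%), beside 16.5% and 34.1% of 2801 other genes. From 3000 to 5000 bases, 15 of 57 were lower (26.3%) and 3 higher (5.26%), beside 24.7% and 21.3% of 2582 genes. At 5000 bases or more, 23 of 64 were lower (35.9%) and 2 higher (3.12%), beside 30.1% and 10.8% of 3216 genes. No test was made of these differences in share.

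**Figure D3:**
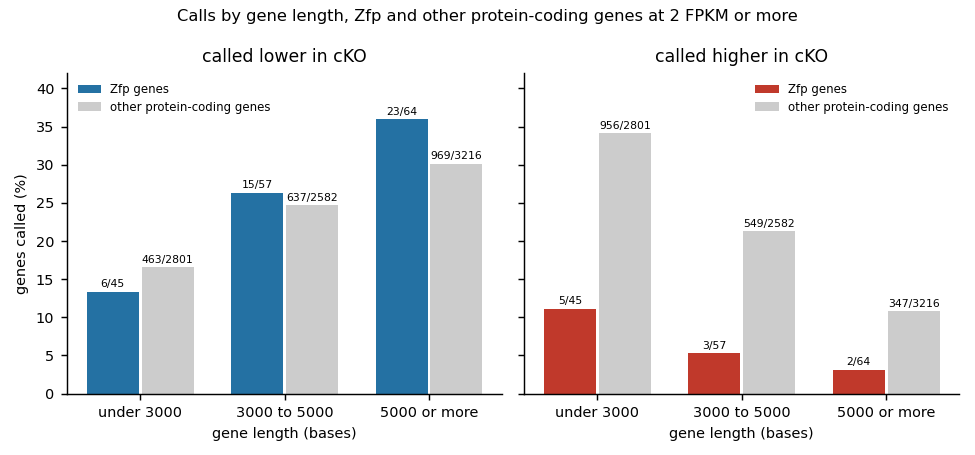
Percentage of genes called lower (left) and higher (right) in cKO at an adjusted p under 0.05, by gene length, for the 166 Zfp genes (coloured) and for 8599 other protein-coding genes at 2 FPKM or more (grey), with the number called over the number of genes above each bar. The coloured and grey bars are close on the left, and on the right the coloured bars are the shorter ones in each class.

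Each Zfp gene was then set against all other protein-coding genes within 1.5-fold of its length and within 1.5-fold of its mean FPKM, 123 to 1254 genes per Zfp gene. Its log2 fold change was under the median of these genes in 110 of 166 cases (66.3%), and the median difference was -0.063. On average 21.8% of the comparators were lower and 14.9% were higher. The number under the median was 109 with narrower windows as well as with windows of 2-fold, 112 after the length trend was removed, 113 when comparators also had to be within 5 percentage points of GC content, and 120 after the trends with GC content and length were removed. Across the 166 genes the log2 fold change had a Spearman correlation of -0.23 with gene length, -0.15 with GC content and 0.034 with mean FPKM. Over the 8599 other protein-coding genes the correlations were -0.28, -0.016 (8593 genes with a value) and 0.16. Genes are not independent replicates, and all these values come from the same 6 libraries.

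Protein architecture was read from the coding sequences. A KRAB A-box pattern was found in 68 of the 166 genes, and 149 had at least 3 C2H2 patterns, with a median of 9 and a maximum of 31. Zfp36, Zfp330 and Zfp839 had 0 of them. Of the genes with the KRAB pattern 11 were lower (16.2%) and 2 higher (2.94%), with a median log2 fold change of -0.092. That median was -0.060 without control replicate 2. Of the 98 without the pattern 33 were lower (33.7%) and 8 higher (8.16%), with a median of -0.12. Over all genes tested 20.6% were lower and 19.9% higher, so the lower share with the KRAB pattern lay below that background. The 2 medians stood in the opposite order after GC and length trends were removed. The largest KRAB falls were Zfp866, Zfp141, Zfp869, Zfp568 and Zfp426, all between -0.30 and -0.29, of which Zfp141 and Zfp426 were called in all 19 alternatives, Zfp869 in 17, Zfp568 in 11 and Zfp866 in 9. The median length was 3535 bases with the KRAB pattern and 4937.5 bases without it, and the median GC content was 41.1% and 51.6%. Beside comparators of their own length and level, 47 of the 68 and 63 of the 98 were under the median, with median differences of -0.058 and -0.068. By number of C2H2 patterns, the 17 genes with 0 to 2 had 7 lower (41.2%) and 2 higher (11.8%). The 51 with 3 to 8 had 12 lower (23.5%) and 6 higher (11.8%), and the 55 with 9 to 12 had 15 (27.3%) and 2 (3.64%). The 43 with 13 or more had 10 lower (23.3%) and 0 higher.

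Genes of the machinery that KRAB proteins recruit, and of heterochromatin more widely, were called in both directions, as were genes at large. Of 32 corepressor and heterochromatin genes tested, 11 fell (34.4%) and 5 rose (15.6%), beside 20.6% and 19.9% of all genes tested, with a median log2 fold change of -0.036. Without control replicate 1, 7 fell and 3 rose, without control replicate 2, 3 rose, and after removal of the length trend 7 fell. Trim28, the scaffold that binds KRAB, fell from a mean of 151 to 131 FPKM (-0.20, adjusted p = 0.0054), and Setdb1, the H3K9 methyltransferase it brings in, fell from 8.77 to 7.74 FPKM (-0.16, adjusted p = 0.015, called in 16 of the 19 alternatives, adjusted p up to 0.094). The largest falls were in Dnmt1, the maintenance DNA methyltransferase (50.8 to 39.2 FPKM, -0.37, adjusted p = 0.00024), Dnmt3a, a de novo DNA methyltransferase (4.48 to 3.57 FPKM, -0.26, adjusted p = 0.023, called in 11 of the 19 alternatives, adjusted p up to 0.16), and Uhrf1, which recruits Dnmt1 (59.3 to 49.4 FPKM, -0.26, adjusted p = 0.00081). The largest rises were in Dnmt3b, the other de novo enzyme (11.0 to 15.8 FPKM, 0.49, adjusted p = 0.00021), the deacetylase Hdac1 (34.2 to 40.1 FPKM, 0.23, adjusted p = 0.001) and Cbx3, an HP1 protein (28.3 to 32.0 FPKM, 0.17, adjusted p = 0.016, called in 17 of the 19 alternatives). Genes of this list thus stood on both sides. Of the 5 genes Trim28, Setdb1, Cbx1, Cbx3 and Cbx5, 2 were lower and 2 higher (40.0% each). Among these, Cbx1 (0.11, adjusted p = 0.044) was called in 7 of the 19 alternatives. Cbx5, another HP1 protein chosen here after its values were seen, was at 14.6 and 14.3 FPKM (adjusted p = 0.64).

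Among genes that act on RNA, ribosomes or protein turnover, 4 of 11 fell (36.4%), 2 rose (18.2%) and 5 did not pass the test, beside 20.6% lower and 19.9% higher of all genes tested. Beside Zfp36 the falls were in Zfp830, a spliceosome protein (19.4 ± 1.27 to 16.8 ± 0.924 FPKM, SD, n = 3; -0.20, adjusted p = 0.033), Zfp91, a ubiquitin ligase of the noncanonical NF-kB pathway (11.9 to 10.4 FPKM, -0.17, adjusted p = 0.019), and Zfp326, which couples splicing to RNA polymerase II (5.61 to 4.96 FPKM, -0.15, adjusted p = 0.034). Zfp830 was called in 13, Zfp91 in 14 and Zfp326 in 8 of the 19 alternatives. Zfp830 lost its call without control replicate 2 or 3 or cKO replicate 1 or 3 (adjusted p up to 0.098), Zfp91 without control replicate 1 or 2 (up to 0.066) and with the replicate block (0.055), and Zfp326 when any library other than cKO replicate 2 was left out (up to 0.098). With the length trend removed, Zfp91 was at -0.082 (adjusted p = 0.19) and Zfp326 at -0.082 (adjusted p = 0.19). With GC and length trends removed they were at -0.075 (adjusted p = 0.23) and -0.11 (adjusted p = 0.12), and with the level trend removed Zfp326 was at -0.10 (adjusted p = 0.12). The rises were in Zfp207 and in Zfp598, the ubiquitin ligase that senses collided ribosomes, which had 24.8, 25.3 and 24.6 FPKM in control and 26.3, 27.6 and 26.9 FPKM in cKO. Zfp622, a factor of 60S ribosomal subunit maturation, stood at 17.0 and 15.7 FPKM (adjusted p = 0.065). Zfp106, Zfp346, Zfp451 and Zfp638, which bind RNA or act in SUMO modification and silencing, had log2 fold changes between -0.12 and -0.015.

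Of 20 genes listed as blood, stem cell or general transcription factors, 8 fell (40.0%), 1 rose (5.00%) and 19 had a negative log2 fold change (95.0%), with a median of -0.17. Over all genes tested the shares were 20.6%, 19.9% and 51.7%, and over the 166 Zfp genes 26.5%, 6.02% and 74.1%. The falls beside Zfp516, Zfp217 and Zfp367 were in Zfp609, which works with cohesin loading and Integrator (3.05 to 2.39 FPKM, -0.26), Zfp219, a partner of Sox9 (16.3 to 13.6 FPKM, -0.24), Zfp592, a subunit of a complex with Zmynd8 (6.79 to 5.74 FPKM, -0.21), Zfp143, which binds promoters and chromatin loop anchors (5.18 to 4.35 FPKM, -0.21), and Zfp384, whose human counterpart is a fusion partner in B cell leukaemia (11.4 to 9.78 FPKM, -0.20). Their adjusted p lay between 0.0059 and 0.032. Zfp219 kept its call in all 19 alternatives, Zfp609 in 17, Zfp592 in 16, Zfp384 in 12 and Zfp143 in 10. Among fits that leave out a library, Zfp609 lost it without control replicate 1 (adjusted p = 0.052), Zfp592 without control replicate 2 (0.057), Zfp384 without control replicate 1 or 2 or cKO replicate 1 or 3 (up to 0.065) and Zfp143 without control replicate 1 or 2 or cKO replicate 1 or 2 (up to 0.10). With GC and length trends removed, Zfp609 (-0.17, adjusted p = 0.063), Zfp592 (-0.13, adjusted p = 0.090) and Zfp384 (-0.12, adjusted p = 0.084) were not called, and with the length trend alone removed neither were Zfp592 and Zfp384 (both -0.14, adjusted p = 0.062). Zfp384 shares 20.4% of its 31-mers with other genes. Zfp131 was the rise. Among those that did not pass the test, Zfp281 and Zfp148, which bind GC-rich promoters, had log2 fold changes of -0.17 and -0.17 with adjusted p of 0.088 and 0.066, with no overlap between the groups. Zfp410, which acts chiefly by keeping up expression of the NuRD subunit Chd4, stood at 3.90 and 3.77 FPKM (adjusted p = 0.65), and Chd4, singled out here after its values were seen, at 37.3 and 35.6 FPKM (adjusted p = 0.23).

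Among the 4 silencers of imprinted genes and retroelements 1 fell and none rose, beside 20.6% lower and 19.9% higher of all genes tested. Their median log2 fold change was 0.035, and a list of 4 genes is too short to set its share apart from that background. Zfp445, which protects imprints, had 6.90, 7.21 and 6.79 FPKM in control and 7.26, 7.39 and 7.54 FPKM in cKO (0.077, adjusted p = 0.18), and it passed the test after removal of the length trend (0.15, adjusted p = 0.026). Zfp932, which silences retroelements and shares 58.0% of its 31-mers with other genes, had 6.46 and 6.79 FPKM on average (adjusted p = 0.23). Zfp809, which recognises the primer binding site of murine leukaemia viruses, had 3.63 and 3.66 FPKM (adjusted p = 0.96). Zfp568, a repressor of a placental Igf2 promoter, was the fall (3.03 to 2.29 FPKM, -0.29, adjusted p = 0.024), lost without control replicate 1 or 2 or cKO replicate 2 or 3 (up to 0.079), and called in 11 of the 19 alternatives. In Zfp445 and Zfp932 every cKO library exceeded every control library.

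**Figure D4:**
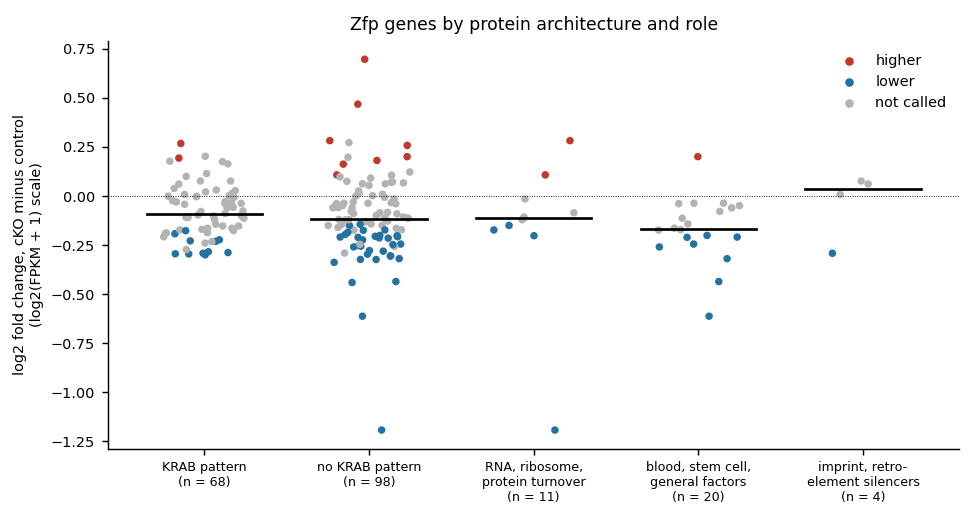
Log2 fold change (cKO minus control, log2(FPKM + 1) scale) of Zfp genes with and without a KRAB pattern and of the 3 role groups, one point per gene coloured by call, with a line at the median. The medians are -0.092, -0.12, -0.11, -0.17 and 0.035 from left to right, and Zfp36 is the lowest point in both columns that hold it.

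Zfp genes often lie side by side, and few of their runs of neighbours held calls in both directions. The Zfp genes lay on 20 chromosomes, most on chromosome 7, with 43 genes, 16 lower (37.2%) and 3 higher (6.98%). Chromosome 17 had 18 genes, 1 lower and 1 higher (5.56% each), and chromosome 8 had 12, 2 lower (16.7%) and 1 higher (8.33%). Chromosome 6 had 11, 5 lower (45.5%) and 1 higher (9.09%). Over all genes tested 20.6% were lower and 19.9% higher. With gaps of up to 200 kb, 82 genes fell into 27 runs, and 2 of the runs held calls in both directions. The run on chromosome 6 with Zfp282, Zfp212, Zfp956, Zfp777 and Zfp746 held 3 falls and had a median of -0.23. The run on chromosome 7 with Zfp84, Zfp790, Zfp568, Zfp566, Zfp260 and Zfp146 held 2 falls and a median of -0.24. The runs of 5 on chromosomes 13 and 17 held no call, with medians of -0.11 and -0.030, and genes of a run can share reads because their sequences are alike.

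Of the related C2H2 families at 2 FPKM or more, the Zbtb, Zscan and Zkscan genes had falls and no rises, and the Zfp genes with a letter suffix had both. Of the 23 Zbtb genes, which join a BTB domain to zinc fingers, 8 fell and none rose, with a median of -0.14, led by Zbtb18 (10.8 to 7.54 FPKM, -0.46, adjusted p = 0.00053) and Zbtb21 (2.77 to 1.90 FPKM, -0.38, adjusted p = 0.013). Zbtb21 was under 2 FPKM in cKO and so reached the limit through its control level. Of 7 Zscan genes, with a SCAN dimerization domain, 2 fell, Zscan2 (7.90 to 5.03 FPKM, -0.56, adjusted p = 0.00077) and Zscan22 (-0.15, adjusted p = 0.036, called in 9 of the 19 alternatives, adjusted p up to 0.15). Of 6 Zkscan genes 2 fell, Zkscan14 (-0.28) and Zkscan17 (-0.18). The 11 Zfp genes with a letter suffix had 2 rises, Zfp512b and Zfp36l2 (called in 16 and 17 of the 19 alternatives), and 1 fall, Zfp955a (10 of 19). Over the 47 genes of these families 13 were lower (27.7%) and 2 higher (4.26%), beside 24.1% and 21.5% of other protein-coding genes at 2 FPKM or more and 20.6% and 19.9% of all genes tested, so that the lower share lay close to the background. There were 7 lower without control replicate 1 and 1 higher without control replicate 3 or cKO replicate 2 or 3. Zfp genes at 1 to 2 FPKM, 81 in all, had 14 lower and 1 higher and a median of -0.10.

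The 112 Zfp genes that were not called ranged from -0.29 to 0.27 in log2 fold change. In 81 of them the groups overlapped, in 22 all cKO libraries were lower and in 9 all were higher. Called or not, the groups did not overlap in 39.8% of the 166 genes in the lower direction and 11.4% in the higher one. Over all genes tested these shares were 28.5% and 25.5%. At an unadjusted p under 0.05 there were 74 Zfp genes, and the share over all genes at that limit was not counted. The standard errors of the 166 genes ran from 0.024 to 0.19, and the smallest change that was called was 0.11 (Zfp598). An exact permutation test of 3 against 3 libraries for a single gene cannot go below p = 0.1, and none is given.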

How the data were processed

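Messenger RNA of sorted LSK cells was sequenced in 3 control and 3 cKO samples with an Illumina Truseq RNA kit. The authors deposited 1 table of FPKM per gene and library, with no counts. The submitters' processing notes name HISAT2 2.0.5 and mm10, and the counting program is not given in the sources used here. FPKM times gene length came out as whole reads, within 0.02 of a whole number for 100% of values, which gave the depths of 17571544 to 19894562 reads on genes. FPKM carry gene length and the share taken by other genes, so they are relative levels.

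Log2(FPKM + 1) of the 11552 genes averaging 1 FPKM or more was compared between groups with limma 3.58.1 (eBayes with a trend, no covariate, 2-sided, Benjamini-Hochberg over all genes tested) in R 4.3.3, and calls were made at an adjusted p under 0.05. Fold changes on this scale understate the change of low genes. The members and the gene lists were chosen with earlier results of these data known. The genes named are the 10 most abundant, the 10 largest falls and the rises among the calls, the genes around 2 FPKM, Zfp251, the role lists, and for other lists the largest calls in each direction. The KRAB genes, runs of neighbours and genes without a C2H2 pattern were named after their values were seen.

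Zinc finger and KRAB patterns were read from translations of the longest GENCODE M21 coding sequence of each gene, and a KRAB domain that departs from the pattern is missed. Shared 31-mers and exonic overlap come from the same annotation. All 166 identifiers matched it, 162 with the deposited start and end. Promoter windows are those of RefSeq (GRCm38.p6), found for 140 genes, and only the bases before the start were used. Alternatives changed the pseudocount, filter, scaling, moderation, replicate block, length, level or GC trends and single libraries.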

Additional observations from a re-analysis of the deposited data

How the results depend on the processing

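Calls rest on 3 libraries per group and on relative levels, and changes near 0.1 on the log2 scale are within reach of scaling and length trends. The Zfp genes had more lower than higher calls and a negative median in each of the 19 alternatives (median -0.13 to -0.064), and no named gene that was called changed sign. Calls of 55 named Zfp genes in the alternatives fell on the same side in 947 of 1045 cases, 82 lost a call and 16 gained one. Leaving out 1 library gave 27 to 35 lower and 7 to 11 higher Zfp genes, 7 to 10 lower and 3 to 5 higher corepressor genes, 7 to 11 lower and 1 to 2 higher genes of the other C2H2 families, and medians of -0.10 to -0.060 for genes with a KRAB pattern. Without a filter 29 Zfp genes and 8 of the other families were lower, since more genes were tested. Restricting to 5 FPKM or more left 76 Zfp genes, with 28 lower and 37 without overlap in the lower direction, by construction.

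Removing the length trend gave medians of -0.072 over the Zfp genes, -0.064 with and -0.077 without a KRAB pattern, and 7 lower corepressor genes. Removing the level trend gave -0.064, -0.049 and -0.081, with 1 higher and 8 lower genes of the other families. Removing GC and length trends, an alternative added after seeing the data, gave -0.075 over the Zfp genes, -0.055 without a KRAB pattern and 7 lower corepressor genes. In that fit the genes with a KRAB pattern thus had the lower median, the reverse of the main fit. A pseudocount of 0.1 gave -0.13 and -0.15 without a KRAB pattern, since it compresses low values less. Quantile normalization left 1 higher gene in the other families. Leaving out the 24 Zfp genes that share over 20% of their 31-mers or exonic bases, also added later, left 41 lower and 9 higher of 142. The cause of the other shifts was not tested. With the replicate block 34 Zfp genes were lower and 8 higher. Deviations of samples with the same number correlated at -0.0046, -0.011 and -0.026, so no shared deviation was seen. These values cannot show whether samples of the same number were siblings or were handled together. The count test planned on recovered reads was not run, because the deposited unit is FPKM, and voom on those reads gave 49 lower and 12 higher.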
